A study of Mus musculus with 2 samples.

Results

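The mouse collagen genes were described across the cells of dorsal skin. Members were all genes whose symbol consists of Col, a number, the letter a and a second number, without Col17a1, which gave 43 of the 19059 genes listed in the deposited matrices. By the assembly their chains form, 11 are fibrillar, 6 build the type IV network of basement membranes, 3 belong to the zone around basement membranes, 6 form beaded filaments of type VI, 9 are fibril-associated, 3 form other networks, 3 are transmembrane and 2 are unplaced.

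The study asked what loss of epiplakin, a cytoskeletal linker of epithelia encoded by Eppk1, does to the skin. A 6 mm punch of untreated dorsal skin came from 1 wildtype C57BL/6J mouse and from 1 Eppk1-/- mouse backcrossed into the same strain. Both groups thus share the background strain, body site and the absence of treatment. Age, sex and the number of backcross generations are not given in the sources used here. Dissociated cells were fixed and profiled with a probe-based single-cell assay (10x Genomics Flex), in which pairs of probes against each transcript are counted as unique molecular identifiers (UMIs). With 1 mouse per genotype no test between genotypes is possible. Intervals below are exact 95% intervals that cover counting error only, and a genotype ratio was called higher or lower by size alone, at a log2 ratio of at least 0.5 either way with at least 50 UMIs over both libraries.

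There were 9179 wildtype and 8811 Eppk1-/- cells in the deposited matrices, and the median cell had 5078 and 5093 UMIs. The 2 samples carried different probe barcodes, and 1211 droplet barcodes occurred in both. Per-cell gates on marker genes, none of them a collagen, found 1624 and 2586 fibroblasts, 5614 and 4163 keratinocytes, 802 and 1019 leukocytes, 18 and 11 endothelial cells and 20 and 13 melanocytes in the wildtype and Eppk1-/- libraries, in that order here and below. Mural cells numbered 3 and 3, too few to describe. The targeted gene fell but did not reach 0. Eppk1 had 2923 CPM (UMIs of the gene per 1000000 non-mitochondrial UMIs of the cell type) in wildtype keratinocytes and 735 CPM in Eppk1-/- keratinocytes, and 1080 CPM and 65.9 CPM in basal cells. The loss was smaller in the late stages, with 6761 and 3956 CPM in granular cells and 1618 and 1397 CPM in Lce-rich cells, where the log2 ratio of -0.21 lay inside the size rule. Where its probes lie relative to the deleted part is not given.

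Collagens are triple helices of chains that are folded in the endoplasmic reticulum, cross-linked outside the cell and assembled into fibrils, networks or filaments. Fibroblasts of the dermis make the type I, III and V fibrils that give skin its strength, and fibril-associated collagens such as types XII and XIV sit on the surface of these fibrils. Below the epidermis and around vessels lies a sheet of type IV collagen, which type VII anchors to the dermis. The type IV chains are encoded head to head in pairs, and members of a pair are known to share a promoter region. Because each gene has its own probes, levels are compared below for the same gene between cell types, and between genes only as a ratio followed across cell types.

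The type IV promoters are shown because the genes of a pair start head to head while their levels, given further on, kept different proportions in different cells. In the GENCODE annotation of GRCm38, Col4a1 on the minus strand and Col4a2 on the plus strand start 21 bases apart on chromosome 8. Col4a3 (plus) and Col4a4 (minus) start 72 bases apart on chromosome 1, and Col4a5 (plus) and Col4a6 (minus) 1309 bases apart on chromosome X. The windows come from RefSeq, where the start of Col4a5 lies elsewhere than in GENCODE. Each window below runs from 250 bases before to 50 bases after a start, 5′ to 3′ on the strand of the gene, from RefSeq on GRCm38.p6: chr8:11312777-11313076 for Col4a1, chr8:11312555-11312854 for Col4a2, chr1:82586800-82587099 for Col4a4, chrX:141475169-141475468 for Col4a5 and chrX:141474027-141474326 for Col4a6. Capitals mark a CCAAT box (CCAAT, or ATTGG on the other strand) or a GC box (GGGCGG or CCGCCC).
Col4a1: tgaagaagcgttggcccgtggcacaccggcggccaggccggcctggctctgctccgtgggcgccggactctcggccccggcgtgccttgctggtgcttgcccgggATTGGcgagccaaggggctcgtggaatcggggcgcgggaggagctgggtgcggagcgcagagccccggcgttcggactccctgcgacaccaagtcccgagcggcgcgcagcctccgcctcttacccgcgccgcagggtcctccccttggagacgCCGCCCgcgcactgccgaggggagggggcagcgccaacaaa
Col4a2: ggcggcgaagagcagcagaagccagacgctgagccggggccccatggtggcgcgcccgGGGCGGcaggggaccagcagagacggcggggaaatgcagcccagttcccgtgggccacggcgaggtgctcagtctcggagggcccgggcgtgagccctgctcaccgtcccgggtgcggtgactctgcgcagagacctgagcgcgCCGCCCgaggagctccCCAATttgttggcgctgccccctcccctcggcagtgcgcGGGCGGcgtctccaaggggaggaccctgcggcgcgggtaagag
Col4a4: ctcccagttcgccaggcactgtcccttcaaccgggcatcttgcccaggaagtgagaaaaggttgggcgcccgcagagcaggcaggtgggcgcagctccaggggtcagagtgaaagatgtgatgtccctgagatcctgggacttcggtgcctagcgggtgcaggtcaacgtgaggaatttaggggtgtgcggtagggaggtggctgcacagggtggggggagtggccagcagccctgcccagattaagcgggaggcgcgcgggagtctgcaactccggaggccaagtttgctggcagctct
Col4a5: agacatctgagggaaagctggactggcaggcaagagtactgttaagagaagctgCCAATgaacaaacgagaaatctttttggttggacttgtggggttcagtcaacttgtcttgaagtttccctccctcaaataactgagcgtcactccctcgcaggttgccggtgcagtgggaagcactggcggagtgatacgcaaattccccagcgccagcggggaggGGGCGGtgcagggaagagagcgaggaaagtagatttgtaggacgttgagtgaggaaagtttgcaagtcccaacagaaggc
Col4a6: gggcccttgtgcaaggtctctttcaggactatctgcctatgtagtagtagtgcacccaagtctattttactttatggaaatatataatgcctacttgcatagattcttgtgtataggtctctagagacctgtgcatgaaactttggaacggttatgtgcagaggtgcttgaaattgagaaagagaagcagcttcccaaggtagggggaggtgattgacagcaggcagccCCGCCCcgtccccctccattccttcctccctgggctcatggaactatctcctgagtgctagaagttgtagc

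The windows of Col4a1 and Col4a2 overlap by 78 bases, while those of Col4a5 and Col4a6 do not overlap. The share of G and C is 74.0% for Col4a1, 73.7% for Col4a2, 63.3% for Col4a4, 52.7% for Col4a5 and 48.3% for Col4a6. The CCAAT box stands in the windows of Col4a1, Col4a2 and Col4a5, and the GC box in those of Col4a1, Col4a2, Col4a5 and Col4a6, while the Col4a4 window holds neither. A TATA box (TATAAA or TTTATA) is in none of them. Of the 34 members that have a window, 12 hold a CCAAT box, 22 a GC box and 4 a TATA box in any of their 37 windows. Of all 32851 windows, counted singly over 27025 genes, 37.4%, 35.7% and 13.6% do, so the units differ. A match of letters is a description and not evidence of binding.

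By cell type, the collagens fell into a large fibroblast set and a few small sets elsewhere. Of 31 members with at least 50 UMIs over 5 cell types, 19 had their highest level in fibroblasts in both libraries, 4 in keratinocytes (Col4a5, Col4a6, Col7a1 and Col23a1), and 1 each in endothelial cells (Col4a2), melanocytes (Col12a1) and leukocytes (Col11a2). For 5 members (Col4a1, Col15a1, Col27a1, Col8a2 and Col9a3) the highest type differed between the libraries. The order for Col9a3, Col11a2 and Col20a1 carries little, since the level of Col11a2 was 2.54 and 1.52 CPM in keratinocytes and that of Col9a3 2.32 and 2.74 CPM in fibroblasts. The other 12 members stayed below 50 UMIs, and among them Col9a1 and Col10a1, both known from cartilage, had no UMI in these cell types.

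**Figure D1:**
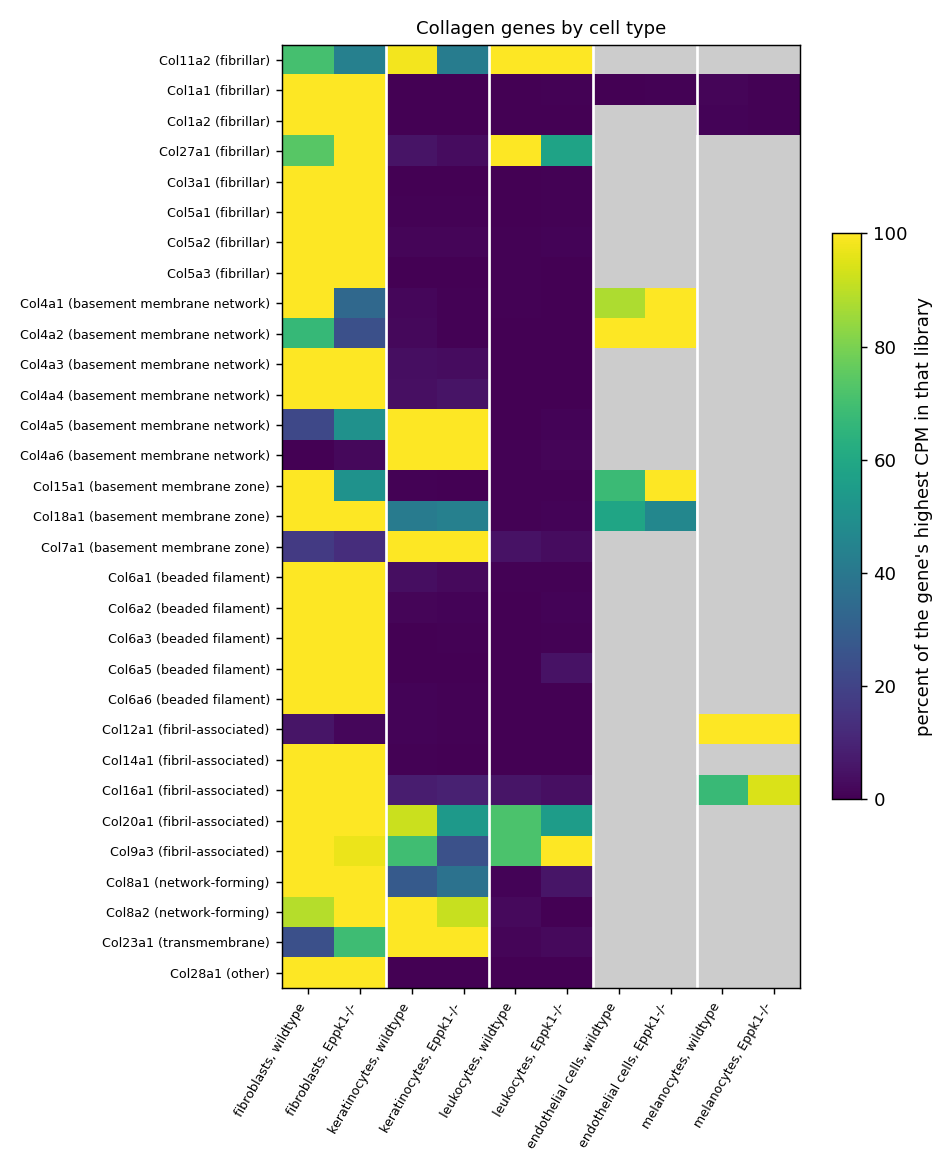
Level of each of the 31 ranked collagen genes (rows, with their class) in 5 cell types of the wildtype and Eppk1-/- libraries (columns), as a percent of the highest CPM of that gene in that library. Grey marks endothelial and melanocyte values that rest on fewer than 10 UMIs, and the bright fibroblast columns hold 19 genes while Col4a5, Col4a6, Col7a1 and Col23a1 peak in keratinocytes.

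Fibrillar collagens made up a large part of the fibroblast transcriptome. The 11 fibrillar genes summed to 7.18% of all UMIs of wildtype fibroblasts and 6.51% of those of Eppk1-/- fibroblasts, out of 7.90% and 7.25% for all 43 collagens. Col1a1, the major chain of type I collagen, had 32180 CPM (32079 to 32281) and 29547 CPM (29464 to 29630). Col1a2, its partner chain, had 21021 CPM and 17501 CPM, and Col3a1, the chain of the type III collagen of pliable tissue, 16421 CPM and 15895 CPM. The log2 ratios of Eppk1-/- over wildtype were -0.12, -0.26 and -0.05, all inside the size rule.

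The remaining fibrillar chains of fibroblasts belong to types that regulate or fill in fibrils. Type V collagen, which sets fibril width, had Col5a1 at 1211 and 1272 CPM, Col5a2 at 722 and 573 CPM and Col5a3 at 249 and 276 CPM. Col27a1, a collagen best known from cartilage, had 6.30 CPM (4.96 to 7.88) and 14.6 CPM (12.8 to 16.6), a log2 ratio of 1.21 and the only fibrillar member past the size rule. Col2a1, Col11a1, Col11a2 and Col24a1 each had fewer than 50 UMIs in fibroblasts.

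Fibroblasts were not uniform in this output. Sorted by markers that are not collagens, 4 groups were told apart: cells marked by Pla1a, Efhd1 and Ptx3 (511 and 1135 cells), by Tnmd, Masp1 and Slit2 (265 and 379), by Cpz, Pla2g5 and Fgfr4 (257 and 265), and by Angpt4, Myoc and C7 (59 and 89), called below the Pla1a, Tnmd, Cpz and Angpt4 groups. Another 375 and 546 fibroblasts passed no group gate and 157 and 172 passed several. The median Cpz fibroblast devoted 21.3% and 22.0% of its UMIs to collagens, against 6.96% and 6.63% in the Tnmd group, 2.32% and 3.02% in the Pla1a group and 3.10% and 2.61% in the Angpt4 group. The interquartile range of the Cpz group, 15.9% to 25.9% in wildtype and 16.3% to 27.4% in Eppk1-/- cells, lay above those of the other 3 groups in both libraries. A collagen share above 10% was found in 93.4% and 89.8% of Cpz fibroblasts, and the highest single cells reached 37.3% and 42.1%.

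**Figure D2:**
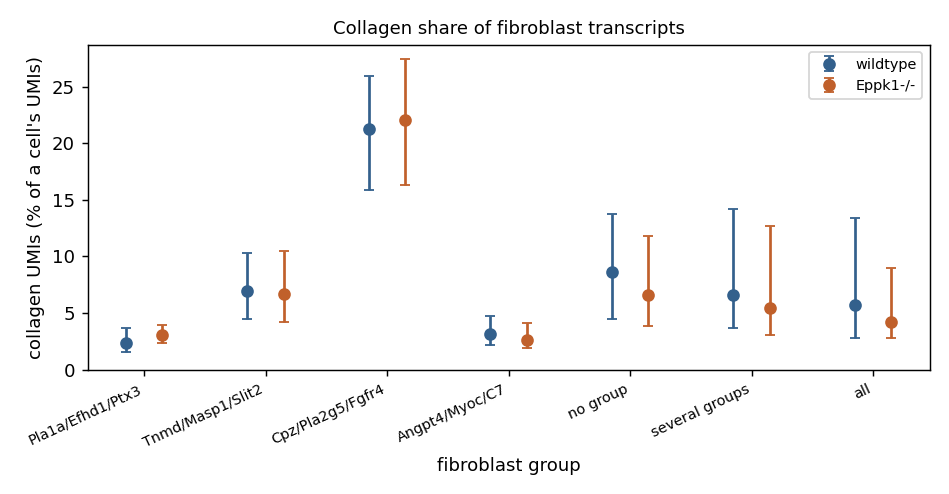
Percent of a cell's UMIs that come from the 43 collagen genes (vertical axis) by fibroblast group (horizontal axis), with the wildtype library in blue and the Eppk1-/- library in orange. Points are medians over cells and bars run from the lower to the upper quartile, which describe cells and not mice, and the Cpz group stands at 21.3% and 22.0% against at most 6.96% in the other named groups.

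Single genes followed 3 patterns over the groups. The chains of types I and III rose from the Pla1a and Angpt4 groups to the Cpz group. For Col1a1 the Cpz group had 103878 CPM and 120531 CPM, the Tnmd group 33618 and 33478 CPM, the Pla1a group 8449 and 9920 CPM and the Angpt4 group 7307 and 7495 CPM, so that the highest group was 14.2 and 16.1 times the lowest. Col3a1 spanned a narrower range, from 6182 and 6234 CPM in the Angpt4 group to 40475 and 38819 CPM in the Cpz group. Col16a1, a fibril-associated collagen, followed the same order at its ends, with 970 and 1190 CPM in the Cpz group and 152 and 174 CPM in the Pla1a group.

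Type V collagen varied less, and its chains did not share 1 order. Col5a3 was highest in the Pla1a group, at 268 and 273 CPM, and lowest in the Cpz group, at 163 and 92.0 CPM. These gave ratios of 1.64 and 2.96. Col5a1 was highest in the Cpz group, at 1520 and 1594 CPM, and lowest in the Pla1a group of the wildtype library (978 CPM) and the Angpt4 group of the Eppk1-/- library (996 CPM), which gave ratios of 1.55 and 1.60. The proportions of the fibrillar chains therefore changed with the group. Per UMI of Col1a1 there were 0.587 and 0.517 UMIs of Col1a2 in the Cpz group and 1.03 and 0.895 in the Angpt4 group. Col3a1 stood at 0.390 and 0.322 per UMI of Col1a1 in the Cpz group and at 0.890 and 1.01 in the Pla1a group.

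Type VI collagen, whose chains form the beaded filaments around cells, ran the other way. Col6a3 had 330 and 355 CPM in the Cpz group, against 1811 and 1387 CPM in the Pla1a group, 1406 and 1806 CPM in the Tnmd group and 1691 and 1289 CPM in the Angpt4 group. Col6a1 and Col6a2 were likewise lowest in the Cpz group, at 514 and 515 CPM and at 786 and 810 CPM. Col6a6, a related longer chain, had 72.7 and 119 CPM in the Angpt4 group and 1.85 and 1.93 CPM in the Cpz group. All 4 genes were thus lowest where types I and III were highest, in both libraries.

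The last pattern joined the fibril-associated types XII and XIV, which were low in the Cpz group and highest in the Angpt4 group in both libraries, apart from Col14a1 in the Eppk1-/- library. Col12a1 had 165 and 121 CPM in the Angpt4 group and 3.71 and 0.644 CPM in the Cpz group. For Col14a1 the Angpt4 group had 1174 CPM (1090 to 1262) and 1260 CPM (1182 to 1343), the Cpz group 11.7 and 26.4 CPM, and the Pla1a group 505 CPM (485 to 525) in wildtype and 1476 CPM (1450 to 1503) in Eppk1-/- cells, where it passed the Angpt4 group. Col8a2, a network-forming chain, was also highest in the Angpt4 group, at 90.5 and 109 CPM, while the Pla1a group had 1.19 CPM in wildtype.

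**Figure D3:**
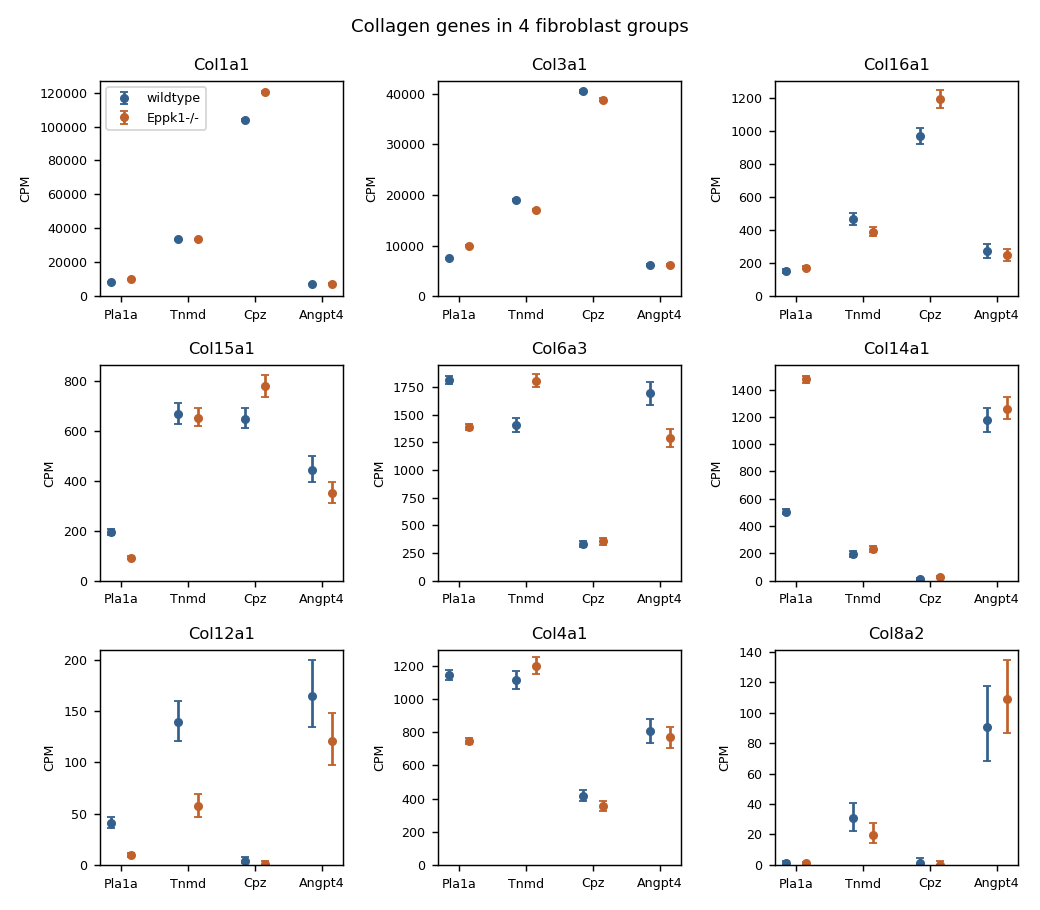
CPM (vertical axes, each from 0) of 9 collagen genes in the Pla1a, Tnmd, Cpz and Angpt4 fibroblast groups (horizontal axes), wildtype in blue and Eppk1-/- in orange, with exact 95% Poisson intervals as bars. Col1a1 peaks in the Cpz group at 103878 and 120531 CPM, Col6a3 is lowest there at 330 and 355 CPM, and Col14a1 separates the libraries in the Pla1a group at 505 and 1476 CPM.

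Between genotypes, 29 members could be compared in fibroblasts, and 7 were higher and 4 lower in Eppk1-/- cells by the size rule. Over all 11381 genes compared there, 9.98% were higher and 6.12% lower, so that 37.9% of the collagens passed the rule in either direction against 16.1% of all genes. The median log2 ratio of the collagens was -0.05, against 0.07 over all genes. The 14 members under 50 UMIs in fibroblasts, 4 of them without a UMI there (Col9a1, Col9a2, Col10a1 and Col25a1), are in none of these counts.

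The higher members were led by Col14a1. Its level was 423 CPM (412 to 435) in wildtype and 984 CPM (969 to 999) in Eppk1-/- fibroblasts, a log2 ratio of 1.22 (1.17 to 1.26). When each cell was thinned to 2000 UMIs, which left out 104 and 159 fibroblasts, 32.4% (30.0 to 34.8) and 57.6% (55.6 to 59.6) of cells had a Col14a1 UMI, against 47.8% and 65.7% without thinning and 0.339% and 0.905% of thinned keratinocytes. The other higher members stood at low levels. Col6a6 had 39.0 CPM (35.6 to 42.7) and 90.0 CPM (85.5 to 94.7), and Col4a5 5.55 CPM (4.30 to 7.05) and 12.0 CPM (10.4 to 13.8). Col23a1, a transmembrane collagen, had 5.80 and 11.6 CPM, Col6a5 2.40 and 4.26 CPM and Col20a1 2.32 and 4.01 CPM, and together with Col27a1 these complete the list.

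Lower members were Col12a1, Col4a3, Col4a4 and Col8a1. Col12a1, the type XII chain, fell from 75.0 CPM (70.2 to 80.1) to 26.7 CPM (24.3 to 29.3), a log2 ratio of -1.49 (-1.66 to -1.32). Col4a3 and Col4a4, the paired chains of a specialised type IV network, had 16.8 and 5.90 CPM and 33.9 and 20.2 CPM, with log2 ratios of -1.51 and -0.75. Col8a1 had 15.9 and 10.8 CPM, near the limit of the rule at -0.56 (-0.87 to -0.26). Types XII and XIV thereby moved in opposite directions, and the ratio of Col14a1 to Col12a1 was 5.65 in wildtype and 36.9 in Eppk1-/- fibroblasts.

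Members that kept their level within the rule included the most abundant ones. Col6a1 had 1121 and 1193 CPM, Col6a2 1459 and 1524 CPM and Col6a3 1593 and 1448 CPM. Col16a1 stood at 376 and 351 CPM, Col15a1, a proteoglycan collagen next to basement membranes, at 421 and 373 CPM, and Col18a1, the precursor of endostatin, at 133 and 138 CPM. Col4a1 and Col4a2, the common network of all basement membranes, had 1056 and 936 CPM and 350 and 285 CPM. Col7a1 (3.81 and 2.98 CPM), Col8a2 (12.9 and 11.3 CPM), Col9a3 and Col28a1 (3.73 and 4.32 CPM) were low in fibroblasts of both genotypes.

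The make-up of the fibroblasts moved with these values. The Pla1a group was 31.5% (29.2 to 33.8) of wildtype and 43.9% (42.0 to 45.8) of Eppk1-/- fibroblasts, and the Cpz group 15.8% (14.1 to 17.7) and 10.2% (9.10 to 11.5). With the 4 named groups alone, weighted by their wildtype shares, the log2 ratio of the summed fibrillar collagens went from -0.14 to 0.09. That of Col1a1 went from -0.12 to 0.17. This weighting left out fibroblasts of no group (375 and 546 cells) and of several groups (157 and 172). Shares and left-out cells therefore cannot be told apart in it. Within groups, Col1a1 had log2 ratios of 0.23 (Pla1a), -0.01 (Tnmd), 0.21 (Cpz) and 0.04 (Angpt4). Its lower total in Eppk1-/- fibroblasts was thus not seen inside the Pla1a, Cpz or Angpt4 group. It was seen in fibroblasts of no group, with 69248 Col1a1 UMIs of 1634110 in wildtype and 94800 of 2426879 in Eppk1-/- cells. Fibroblasts of several groups went the other way, with 55430 of 1722223 and 52496 of 1567300. Summed CPM of the 6 fibroblast markers was 22621 and 28120, and single markers had log2 ratios of 0.10 (Dcn), 0.46 (Lum) and 0.63 (Dpt). The part of these shifts in the collagen ratios of all fibroblasts was tested no further than by the weighting.

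Within the groups the counts past the rule were uneven. Among 24 members compared in the Pla1a group, 4 were higher and 6 lower, against 16.5% and 10.2% of all genes there. The Tnmd group had 3 higher and 5 lower of 23 (8.26% and 7.16% of all genes), the Cpz group 1 and 1 of 15 (5.48% and 13.0%) and the Angpt4 group 1 and 0 of 20 (10.8% and 9.50%). No difference between groups was tested. Of 15 members compared in all 4 groups, 3 had the same sign in each group and in all fibroblasts. Col14a1 was on the higher side, and Col5a2 and Col4a2 were on the lower side. Col14a1 passed the size rule in 2 groups and Col4a2 in 1, with Col4a2 as near 0 as -0.02 in another, while Col5a2 passed it in none. The share of all genes with 1 sign throughout was not counted.

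Col14a1 differed most in the Pla1a group, with a log2 ratio of 1.55 (1.49 to 1.61), against 0.27 (0.05 to 0.49) in the Tnmd group, 1.15 (0.35 to 2.04) in the Cpz group and 0.10 (-0.04 to 0.24) in the Angpt4 group. In thinned Pla1a cells 54.8% (50.3 to 59.2) and 88.9% (86.9 to 90.7) had a Col14a1 UMI, while in thinned Angpt4 cells the shares were 78.0% (65.3 to 87.7) and 80.5% (70.6 to 88.2). Col12a1 had 41.2 and 9.61 CPM in the Pla1a group and 139 and 57.0 CPM in the Tnmd group, log2 ratios of -2.09 and -1.29, and -0.45 in the Angpt4 group. The ratio of Col14a1 to Col12a1 in the Pla1a group was 12.3 in wildtype and 154 in Eppk1-/- cells.

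Type XV and most type IV collagens compared were also lower in the Pla1a group, whereas the type IV chain Col4a5 was higher (32 and 110 UMIs, log2 ratio 1.06). Col4a1 had 1146 CPM (1116 to 1176) and 748 CPM (730 to 767) there, Col4a2 365 and 205 CPM, and Col15a1 194 and 91.1 CPM, log2 ratios of -0.61, -0.84 and -1.09. In the Tnmd group the same genes had log2 ratios of 0.11, -0.02 and -0.03. Col6a6 was higher in both, with 26.2 and 97.3 CPM in the Pla1a group and 29.1 and 47.1 CPM in the Tnmd group, and Col23a1 had 6.24 and 37.7 CPM in the Tnmd group. The Pla1a group itself differed between libraries in its own markers, since Ptx3 had 4860 and 2378 CPM and Efhd1 476 and 822 CPM, and the summed fibroblast markers were 17930 and 27167 CPM. Whether cells gated into this group were of the same make-up in both libraries was not tested.

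**Figure D4:**
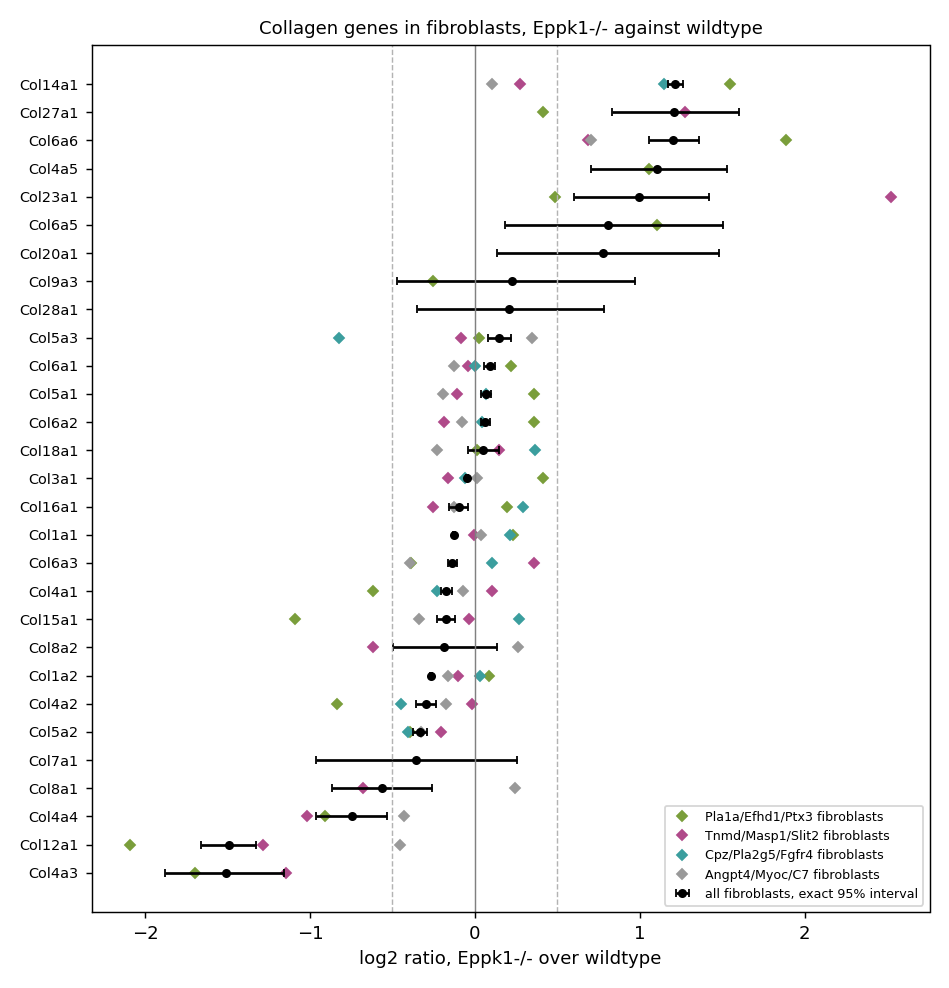
Log2 ratio of Eppk1-/- over wildtype (horizontal axis) for the 29 collagen genes compared in fibroblasts (vertical axis, sorted). Black points with bars are all fibroblasts with exact 95% intervals, coloured diamonds the 4 fibroblast groups, and dashed lines the size rule of 0.5. Col14a1 (1.22) lies far to the right and Col12a1 (-1.49) and Col4a3 (-1.51) far to the left, while the abundant chains sit near 0.

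Genes that fold, cross-link, bind or degrade collagen were read in the same fibroblasts. Of 48 such genes 42 could be compared, and 5 were higher and 8 lower by the size rule, beside the 9.98% and 6.12% of all genes, with a median log2 ratio of 0.07, equal to that of all genes. Among 19 genes of folding and modification none was higher and 3 were lower (P4ha3, Plod2 and Colgalt2), and Serpinh1, the collagen chaperone, had 2427 and 2641 CPM. Among 13 genes of processing and cross-linking, Lox, a cross-linking oxidase, had 638 and 355 CPM, Adamts2, which removes the amino-terminal propeptide, 1558 and 925 CPM, and Tll1, a relative of the carboxy-terminal proteinase, was higher at 34.6 and 53.8 CPM. Of 6 receptors, Itga11, a chain of a receptor for fibrillar collagen, rose from 140 to 238 CPM and Itga2 was higher too, while Itga1 was lower.

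Of 10 genes of breakdown, Ctsk, a protease that cuts collagen fibrils, had 1005 and 1502 CPM and Mmp3 116 and 173 CPM. The inhibitors Timp1 and Timp3 were lower, Timp3 at 2852 and 1862 CPM. A further inhibitor, Timp2, went the other way inside the size rule, at 3387 and 4432 CPM. These differences also varied over the groups. Adamts2 was lower in Eppk1-/- cells of all 4 groups, at 846 and 584 CPM (Pla1a), 2036 and 1323 CPM (Tnmd), 2644 and 1606 CPM (Cpz) and 1235 and 962 CPM (Angpt4). Lox had 559 and 143 CPM in the Pla1a group and 834 and 1094 CPM in the Angpt4 group, opposite in direction.

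Keratinocytes expressed a small collagen set of their own, but RNA from fibroblasts had to be set beside it. The fibroblast genes Dcn, Lum and Dpt were counted in keratinocytes at 0.294% to 0.428% of their fibroblast level in wildtype and 0.320% to 0.423% in the Eppk1-/- library. These genes are also among the 6 fibroblast gate markers, and cells that passed both gates were left out. Gating thus limited their counts in keratinocytes, and its effect on these percentages was not tested. Of 29 collagens with at least 20 keratinocyte UMIs, 17 stood at more than 5 times the highest of these percentages in both libraries. The other 12 did not pass this measure, among them Col1a1 (90.6 and 108 CPM), Col1a2, Col3a1, Col5a1, Col5a2, Col6a2, Col6a3, Col14a1, Col15a1 and Col4a1, and for these, fibroblast RNA and expression in keratinocytes cannot be told apart over all keratinocytes. Col4a1 came closest, at 1.60% and 1.73% of its fibroblast level, and passed the measure in basal and in bulge and germ cells, as Col5a2 and Col6a2 did in bulge and germ cells. For genes with few fibroblast UMIs the bar is so low that the minimum of 20 UMIs nearly ensured a pass. Col9a3, Col11a2, Col20a1 and Col27a1, low in both cell types, passed in this way, and their pass carries little. The share of all genes that would pass was not counted.

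The collagens at their highest in keratinocytes are known parts of the epidermal junction or cell surface. Col4a6 had 29.1 and 27.4 CPM in keratinocytes and no more than 9 UMIs in the fibroblasts of either library, and Col4a5 had 25.6 and 23.7 CPM. Col7a1, the chain of the anchoring fibrils, had 22.5 and 23.0 CPM, and Col23a1 23.8 and 16.9 CPM. Col16a1 (30.1 and 32.0 CPM) and Col18a1 (55.5 and 60.4 CPM) were also above background, though lower than in fibroblasts.

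By stage, these genes were highest next to the basement membrane. Col4a6 had 57.8 CPM (53.3 to 62.7) and 56.5 CPM (51.2 to 62.2) in basal cells, 19.2 and 15.8 CPM in spinous cells and 1.26 and 1.39 CPM in granular cells. Col7a1 had 41.7 and 45.7 CPM in basal, 7.29 and 10.3 CPM in spinous and 2.27 and 1.86 CPM in granular cells, and Col23a1 64.1 and 45.4 CPM, 9.61 and 6.64 CPM, and 0.756 and 0.928 CPM. The fall from basal to granular cells was far outside the counting intervals for each of the 3 genes in both libraries. Col16a1 fell from 73.5 and 79.8 CPM in basal to 7.62 and 7.38 CPM in spinous cells.

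Col4a5, encoded head to head with Col4a6, fell less, from 34.5 and 34.5 CPM in basal to 19.1 and 19.3 CPM in spinous cells. In granular cells it had 14.6 CPM (11.1 to 18.9) and 11.1 CPM (7.14 to 16.6). The ratio of Col4a6 to Col4a5 was accordingly 1.68 (1.47 to 1.92) and 1.64 (1.40 to 1.92) in basal cells, 0.929 and 0.897 in bulge and germ cells and 0.0862 (0.027 to 0.213) and 0.125 (0.0241 to 0.412) in granular cells. In fibroblasts it was 0.0149 and 0.0457. The pair thus kept no fixed proportion across cell types, whereas the 2 libraries had overlapping intervals in basal and granular cells.

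The other head-to-head pair differed in the same way but less. Col4a2 stood at 0.332 (0.320 to 0.344) and 0.304 per UMI of Col4a1 in fibroblasts, 0.563 (0.373 to 0.842) and 0.422 (0.316 to 0.558) in endothelial cells, and 0.612 (0.504 to 0.741) and 0.550 (0.439 to 0.686) in basal keratinocytes. The intervals of basal keratinocytes and fibroblasts did not overlap in either library. In Col4a3 and Col4a4 the ratio of the latter to the former was 2.01 (1.70 to 2.40) and 3.42 (2.72 to 4.34) in fibroblasts.

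Cells gated by hair follicle bulge and germ markers (578 and 325 cells) carried a broader collagen set than any other keratinocyte stage. Here 15 of 21 members with at least 20 UMIs exceeded the background level, against 13 of 23 in basal and 9 of 21 in spinous cells. The basal and spinous counts include Col11a2 and Col20a1, whose pass carries little. Col6a1 reached 447 CPM (421 to 474) and 468 CPM (431 to 508), against 17.2 and 20.9 CPM in basal cells. Col18a1 had 383 CPM (359 to 408) and 516 CPM (477 to 558), against 74.8 and 94.3 CPM, and exceeded its own level in fibroblasts. Col8a2 had 168 and 177 CPM, against 4.15 and 2.70 CPM in basal cells, and Col7a1 85.6 and 82.5 CPM.

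Col12a1 (72.0 and 81.7 CPM), Col5a2 (66.8 and 82.5 CPM), Col4a1 (71.6 and 90.6 CPM) and Col4a2 (54.4 and 56.6 CPM) were also highest there among the stages in both libraries. These values do not follow fibroblast RNA in their proportions. Bulge and germ cells had 0.0161 and 0.0086 UMIs of Col6a3 per UMI of Col6a1, where fibroblasts had 1.42 and 1.21, and 6.96 (4.52 to 11.2) and 4.25 (2.70 to 6.94) of Col5a2 per UMI of Col5a1, where fibroblasts had 0.596 and 0.450. Dcn, Lum and Dpt stood at 0.330% to 0.391% and 0.417% to 0.576% of their fibroblast level in these cells.

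Over all keratinocytes, most collagens compared between genotypes lay inside the size rule. Of 25 members compared, 2 were higher (Col6a3 at 4.10 and 5.99 CPM, Col14a1 at 2.32 and 3.62 CPM) and 2 lower (Col9a3 with 59 and 18 UMIs, Col11a2 at 2.54 and 1.52 CPM), against 4.31% higher and 4.93% lower of all genes, and the median log2 ratio was -0.07 against -0.01. Neither higher gene passed the measure against fibroblast RNA. In the same cells the 6 fibroblast gate markers summed to 79.6 and 105 CPM. Among them Dpt had a log2 ratio of 0.75, while 9.90% and 10.4% of thinned keratinocytes had a Dcn UMI. The part of fibroblast RNA in these calls was not tested. Both lower genes, Col9a3 and Col11a2, passed the measure, though at low levels where a pass carries little. Among the other genes compared that passed it, Col23a1 was closest to the rule, at -0.50 (-0.67 to -0.33) over all keratinocytes. Within basal cells its ratio was -0.50 (-0.69 to -0.31) as well. By stage, 3 of 20 members were higher and 1 lower in basal cells (3.49% and 5.16% of all genes), 1 of 17 higher and 2 lower in spinous cells (3.35% and 4.10%) and 1 of 16 higher and 0 lower in bulge and germ cells (5.07% and 7.20%). The basal genes that were higher, Col1a1, Col3a1 and Col6a3, did not pass that measure in basal cells, while Col23a1 was lower past the rule in spinous cells at -0.53. In Lce-rich cells, the latest stage, both members compared (Col1a1 and Col1a2) were higher, where 5.18% of all genes were, and in sebaceous cells all 3 compared were lower, where 12.9% were. Granular cells had 3 of 4 members higher (3.94% of all genes) and infundibulum cells 3 of 8 lower (5.14%), in both cases Col1a1, Col1a2 and Col3a1, and proliferating cells had 2 of 4 higher, Col1a1 and Col16a1 (6.19%). Col1a1, Col1a2 and Col3a1 passed the measure against fibroblast RNA in none of these stages. The cell richest in collagen held 1.11% and 11.7% of the collagen UMIs of basal cells, and 23.2% and 3.33% of those of infundibulum cells. Col18a1 had log2 ratios of 0.33 (0.18 to 0.48) in basal and 0.43 (0.28 to 0.58) in bulge and germ cells.

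Endothelial cells were few, and their collagens were those of the vessel basement membrane. Col4a1 had 71 UMIs in 15 of 18 wildtype cells and 173 UMIs in 10 of 11 Eppk1-/- cells, or 927 CPM (724 to 1169) and 2758 CPM (2363 to 3201). Col4a2 had 522 and 1164 CPM and Col15a1 287 and 733 CPM. All 3 members compared were higher in the Eppk1-/- library, where 28.3% of the 446 genes compared in these cells were. Of the Col15a1 UMIs, 45.5% and 54.3% came from 1 cell. Without the cell richest in the gene, Col4a1 stood at 833 and 3208 CPM and Col15a1 at 189 and 576 CPM. Lymphatic markers were present in 9 and 4 of the cells, and the part of this make-up in the difference was not tested.

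Melanocytes, also few, stood out for Col12a1. It had 47 and 38 UMIs, or 1328 CPM (976 to 1766) and 1570 CPM (1111 to 2155), in 14 of 20 and 11 of 13 cells, against 75.0 and 26.7 CPM in fibroblasts and 10.4 and 11.8 CPM in keratinocytes. Without the richest cell the values were 1153 and 1370 CPM. Col14a1 had no UMI in these cells, and the ratio of Col14a1 to Col12a1 was at most 0.0816 and 0.102 by its interval, where fibroblasts had 5.65 and 36.9. Col16a1 followed at 254 and 330 CPM. Endothelial, mural and adipocyte markers were at 0 in melanocytes, and the fibroblast markers summed to 283 and 165 CPM. The keratinocyte markers summed to 848 and 744 CPM there, and the leukocyte markers to 0 and 41.3 CPM.

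In leukocytes most collagen counts lay near the fibroblast background, with 12 of 17 members of at least 20 UMIs not above it by the same measure. Of 10 members compared, 8 were higher and 1 lower in the Eppk1-/- library, against 5.82% and 13.8% of all genes. Col1a1 had 63.3 and 129 CPM, a log2 ratio of 1.03. The fibroblast genes Dcn (47.7 and 76.6 CPM) and Dpt (16.5 and 34.7 CPM) moved with it, while Lum (10.9 and 10.5 CPM) did not. A single cell held 21.9% of the collagen UMIs of Eppk1-/- leukocytes. In macrophages Col1a1 had 47.4 and 139 CPM, and 1 cell held 29.9% of the collagen UMIs of the Eppk1-/- macrophages. Col1a1 had 120 and 137 CPM in T and NK cells and 175 and 130 CPM in mast cells. In leukocytes of none of these 3 gates (other leukocytes) it had 111 and 98.4 CPM. The lower member was Col16a1, at 22.0 and 14.7 CPM.

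The other 5 were Col9a3, Col11a2 and Col20a1, with at most 18 UMIs in a library, and Col16a1 and Col27a1. For Col9a3, Col11a2 and Col20a1, low in fibroblasts, the minimum of 20 UMIs nearly ensured a pass. Col16a1 had 17.2 and 10.3 CPM in macrophages and 48.5 and 28.2 CPM in other leukocytes. Col27a1 was concentrated in T and NK cells, where it had 215 CPM (151 to 298) and 125 CPM (77.6 to 192), in 25 of 65 and 13 of 58 cells, against 6.30 and 14.6 CPM in fibroblasts. After thinning to 2000 UMIs, 34.1% (20.1 to 50.6) and 18.4% (7.74 to 34.3) of these cells had a Col27a1 UMI, while 0.221% and 0.491% of thinned macrophages and 0.0998% and 0.165% of thinned keratinocytes did. Its log2 ratio between genotypes, -0.77 (-1.63 to 0.03), has an interval that includes 0.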

How the data were processed

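Whole skin of 1 wildtype and 1 Eppk1-/- mouse was profiled by the authors, who deposited raw UMI counts per gene and cell, made with Cell Ranger on mm10 according to the submitters' processing notes. A cell was kept (8875 and 8617) if it had between 200 and 45000 UMIs, between 100 and 7500 detected genes, and no more than 10% of its counts on mitochondrial genes. Cell types were assigned per cell from marker genes without collagens, with thresholds set after marker counts had been seen, and cells passing the gates of several types (418 and 366) were left out in place of a doublet caller. UMIs were summed per type and library without mitochondrial genes. Log2 ratios used 0.5 UMI added to each sum, exact Poisson intervals for CPM, exact conditional binomial intervals for ratios and exact Clopper-Pearson intervals for shares. The step was tested on simulated Poisson counts for fibroblasts (11378 genes). Of 200 genes changed by 1 log2 unit, 99.5% passed the size rule, as did 195 unchanged genes (1.74%). The intervals rest on the same Poisson model, and 95.2% of them held the true ratio. Spread between cells or between mice was not simulated. Members were named with values where both libraries together held at least 50 UMIs in the cell type described. A few values below that minimum, and values without the richest cell, were added after they were seen. The members and lists were chosen with earlier results of these data known. The software was scipy 1.17.1 and pandas 2.3.3 with numpy 2.4.6, run under Python 3.11.15. Col1a1 and 8 other members had no promoter window. Other experiments of the study were not analysed here. Intervals count UMIs as independent, so they are too narrow for differences between mice.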

Additional observations from a re-analysis of the deposited data

Results flagged for a closer look

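The log2 ratio of Eppk1-/- over wildtype pointed in opposite directions between keratinocyte stages for 3 abundant fibrillar genes, each past the size rule on both sides. Col3a1 had 0.70 in basal keratinocytes and -3.92 in sebaceous cells. Col1a1 had 2.53 in Lce-rich keratinocytes, the most differentiated stage, and -3.51 in sebaceous cells. Col1a2 had 2.91 in Lce-rich keratinocytes and -3.16 in sebaceous cells. The same genes were lower in infundibulum cells (Col1a1 -0.68, Col1a2 -0.53, Col3a1 -0.56) and higher in granular cells (2.25, 2.12 and 0.66). The difference between stages was not tested, because each stage is 1 library per genotype.

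In wildtype sebaceous cells (60 cells) a single cell held 94.2% of the Col1a1 UMIs, 90.6% of those of Col3a1 and 94.8% of those of Col1a2. Without it the level of Col1a1 was 29.0 CPM in place of 494 CPM, and Eppk1-/- sebaceous cells had 32.3 CPM without their own richest cell. The Lce-rich values come from 39 and 35 cells, where Col1a1 had 25.6 and 150 CPM, and 22.1 and 122 CPM without the richest cell. None of the 3 genes passed 5 times the level of fibroblast marker RNA in either stage. In Lce-rich cells Dcn, Lum and Dpt stood at 0.109% to 0.207% of their fibroblast level in wildtype and 0.349% to 0.414% in the Eppk1-/- library. In sebaceous cells they stood at 0.154% to 0.933% and 0.141% to 0.177%. The part of that background in these ratios was not tested.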

How the results depend on the processing

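No paired analysis was possible because each genotype is 1 library, and for the same reason no replicate could be left out. In fibroblasts the number of collagens past the size rule stayed within 1.5 times its value under every alternative, from 5 to 8 higher and from 4 to 6 lower, and 17 to 22 genes were highest in fibroblasts. Beside the counts and sums given here, 14 single genes were recomputed in fibroblasts, and 60 of their values were labelled the same and 24 moved. These labels do not measure the size of a shift. Col6a5 at 1.467 with fibroblast groups at wildtype shares, against 0.81, was labelled the same. Col1a1 at -0.133 with collagen UMIs left out of the total, against -0.123, was labelled moved. In keratinocytes, where 2 were higher and 2 lower, a strict gate gave 0 and 4, the mean over cells 0 and 6, a minimum of 200 UMIs 1 and 0, and leaving out the 5% deepest cells 4 lower. In endothelial cells the strict gate and the minimum of 200 UMIs each left 1 gene to compare in place of 3, and it was higher. The summed type IV log2 ratio of these cells went from 1.38 to 1.82 under the strict gate, with 14 and 5 cells. The summed fibrillar log2 ratio of fibroblasts, -0.14, was -0.17 under a strict gate, -0.15 without the cell filter and -0.19 without the 5% deepest cells. It was -0.15 with collagen UMIs left out of the total and -0.28 as a mean over cells. With the 4 named fibroblast groups at wildtype shares it was 0.086, a change of sign. That setting also leaves out fibroblasts of no group or of several groups, so shares and left-out cells cannot be told apart. For single genes the cause of the moves was not tested: Col14a1 stayed between 1.21 and 1.38, Col12a1 between -1.77 and -1.33, while 3 calls were lost under 1 alternative each, Col23a1 (0.34) and Col6a5 (0.48) as a mean over cells and Col8a1 (-0.31) with fibroblast groups at wildtype shares. That weighting also turned the sign of Col1a1 (0.17), Col1a2 (0.01) and Col3a1 (0.02), none of them called. Leaving out the richest cell was added after the data were seen. Depth limits the endothelial, melanocyte, T and NK cell values, which rest on at most 173 UMIs in a library.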
